A study of Mus musculus with 12 samples.

Results

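NFAT (nuclear factor of activated T cells) proteins are transcription factors that sit in the cytoplasm of resting T cells in a heavily phosphorylated state. Antigen receptor signalling raises intracellular calcium, calcium and calmodulin switch on the phosphatase calcineurin, and calcineurin removes the phosphates so that NFAT enters the nucleus and switches on cytokine genes. The pathway is known for feedback: among the genes it switches on is a calcineurin inhibitor. Expression of 8 genes of this pathway was followed here in cultured mouse T cells: the transcription factor genes Nfatc1, Nfatc2, Nfatc3 and Nfat5, the calcineurin catalytic subunit genes Ppp3ca and Ppp3cb, and the calcineurin inhibitor genes Rcan1 and Cabin1. They were taken by gene name from the annotation of the array (Rcan1 under its older name Dscr1) and make up 8 of 27597 gene names and 25 of 41174 probes on the array. All 8 genes and 24 of the 25 probes passed the filter on dim probes. The exception was an Nfatc3 probe that was not well above background on any of the 12 arrays.

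RNA from T cells of C57BL/6 mice was hybridised to one-colour Agilent arrays, 3 arrays for each of 4 cultures. In every culture naive CD4+CD62L+ T cells from spleen and lymph nodes had been activated with plate-bound anti-CD3 and soluble anti-CD28 and were kept for 5 days, with an expansion into fresh medium on day 3. The Th9 stim cells and the Th9 cells had both received IL-4 (20 ng/ml), TGF-b (2 ng/ml) and a neutralising antibody to IFN-g, and the Th9 stim cells were in addition given 1 ug/ml anti-CD3 for 6 h at the end. Th2 cells had received the same IL-4 and antibody without TGF-b. Treg cells had received TGF-b with a neutralising antibody to IL-4, and IL-2 at the expansion. The Treg label names a culture condition, and no sort on Foxp3 is described. The labels do not say whether the 3 arrays of a group came from separate mice or cultures, so each p-value measures the spread between these arrays, which may be technical. In bulk RNA a lower signal can come from fewer cells of a type or from less RNA per cell, and these cannot be told apart. All levels below are log2 signals relative to the 75th percentile of their own array, all differences are log2 differences, and a gene or probe is called at an adjusted p below 0.05 in limma.

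The arrays of a group correlated at r = 0.988 to 0.995, and 59.8% to 63.7% of the probes of an array were well above background. As checks of the labels, Il9, the cytokine gene that names Th9 cells, stood at 4.87, 5.59 and 6.11 in Th9 stim cells, at -2.43, -1.18 and -1.47 in Th9 cells, and was below background throughout the Th2 and Treg arrays. Foxp3, the lineage factor gene of regulatory T cells, stood at -1.61, -1.78 and -1.51 in Th9 stim cells, at -1.98, -2.07 and -1.90 in Th9 cells, below background in Th2 cells and at 0.78, 0.49 and 0.43 in Treg cells. Between Th9 and Th2 cells, Il4 differed by -1.07 (SE 0.398, adjusted p = 0.0914), and Gata3, the lineage factor gene of Th2 cells, by 0.25 (SE 0.164, adjusted p = 0.337), neither of them called. All 8 T cell markers examined were well above background on all 12 arrays. Each slide carried 4 arrays. One held the Th2 arrays with Treg 1, and another Treg 2, Treg 3, Th9 stim 1 and Th9 stim 2. The last held Th9 stim 3 with the Th9 arrays, so Th9 arrays shared a slide with neither Th2 nor Treg arrays.

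**Figure D1:**
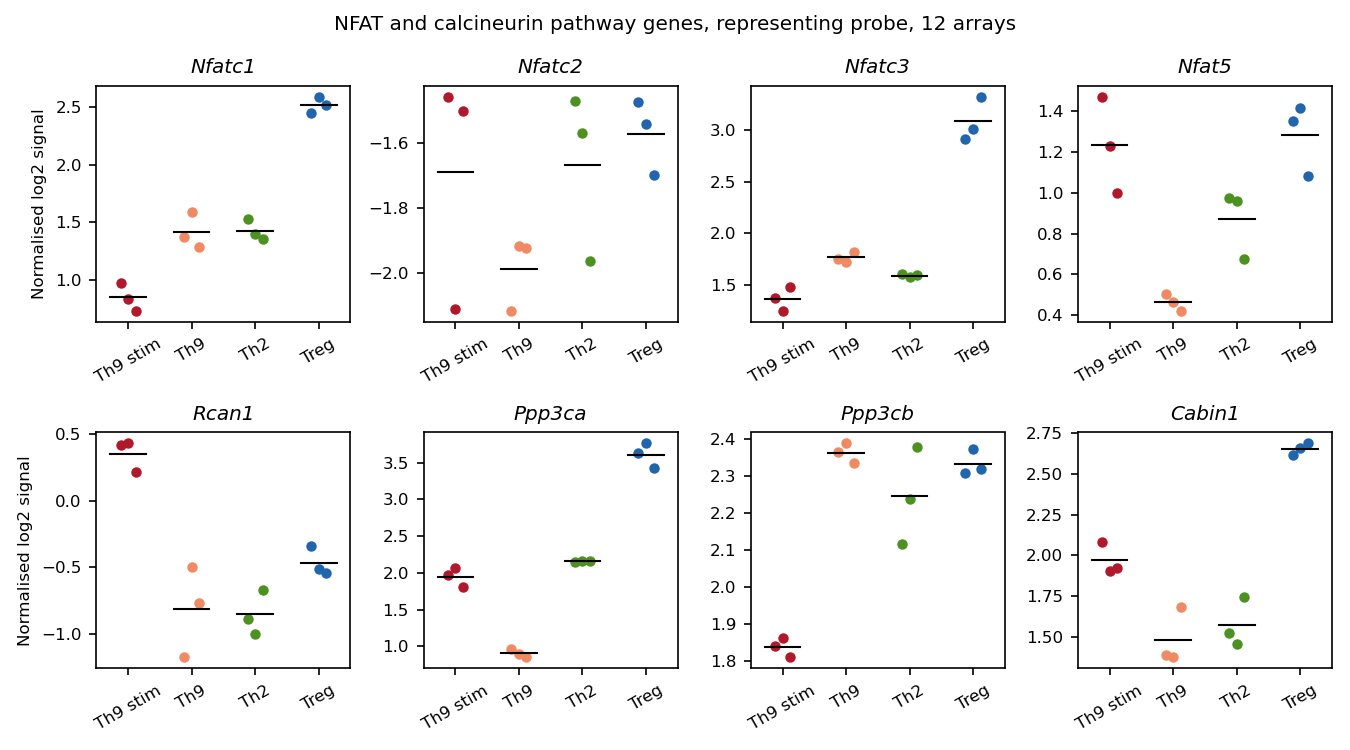
Normalised log2 signal of the 8 genes on the y axis (1 representing probe a gene, y axes differ between panels) in Th9 stim, Th9, Th2 and Treg cells from left to right; points are single arrays and black lines group means (n = 3). Rcan1 is highest on the 3 Th9 stim arrays, and Nfatc1, Nfatc3, Ppp3ca and Cabin1 are highest on the 3 Treg arrays.

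The first comparison asked what renewed triggering of the T cell receptor does to the pathway in Th9 cells. After 6 h of anti-CD3, the calcineurin catalytic subunit gene Ppp3ca, both inhibitor genes and Nfat5 were higher than in unstimulated Th9 cells, by 0.49 (Cabin1) to 1.17 (Rcan1). Ppp3cb and Nfatc3 were lower, and Nfatc2 passed the test at none of its 4 probes. Nfatc1 was higher at a probe designed to one of its transcripts and lower at a probe designed to another. By the probe that represents each gene, 4 of 8 genes were called higher and 3 lower, where 33.2% of all 17912 tested genes were called higher and 30.6% lower. By probe, 20 of 24 were called, 13 higher and 7 lower, against 64.8% of all 27086 tested probes in either direction. The members' median difference was 0.39, beside 0.02 over all genes. With nearly 2 in 3 genes called, the number of calls is not a feature of these 8 genes, and the directions and sizes of single genes follow.

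**Figure D2:**
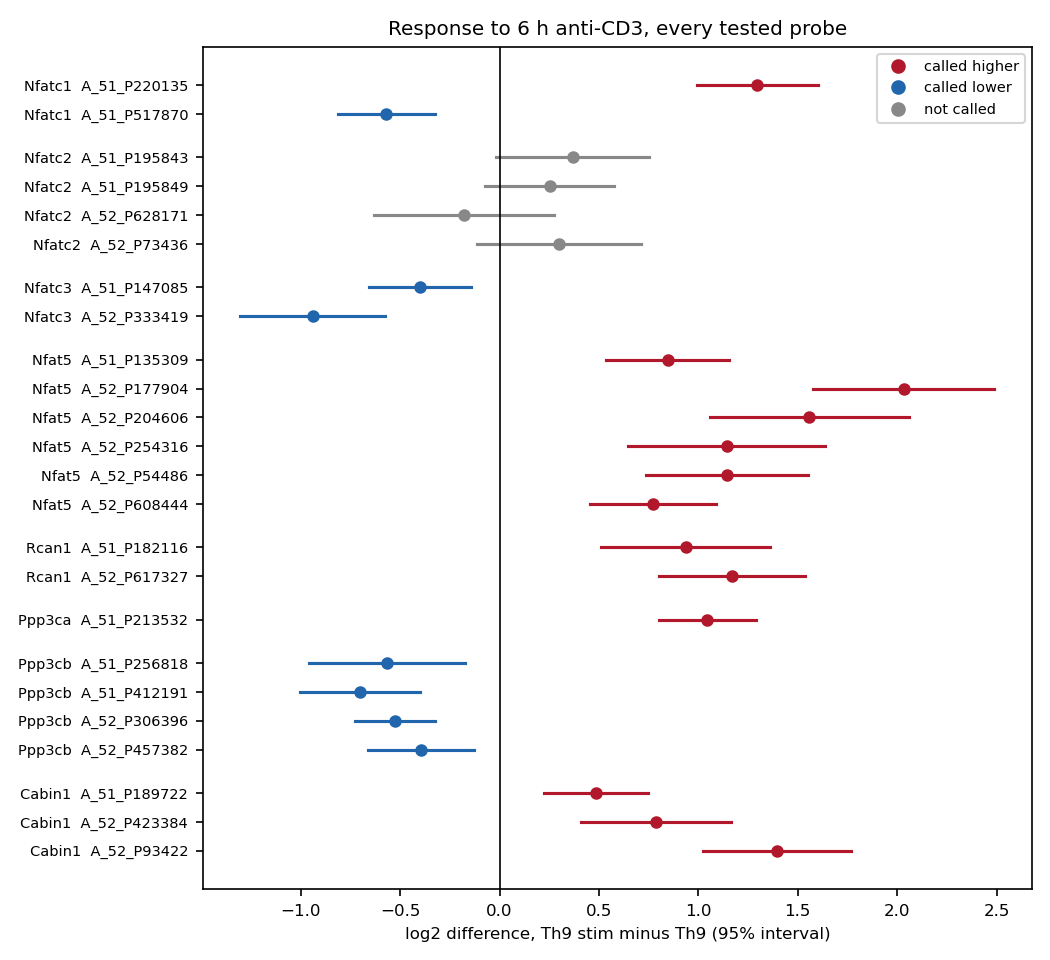
Log2 difference between Th9 stim and Th9 cells on the x axis for the 24 tested probes, grouped by gene on the y axis; points are differences, bars 95% intervals from the model, and colours give the call. All probes of Nfat5, Rcan1, Ppp3ca and Cabin1 lie right of 0, all tested probes of Nfatc3 and Ppp3cb lie left of it, and the 2 Nfatc1 probes lie on opposite sides.

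Ppp3ca encodes the alpha isoform of the calcineurin catalytic subunit, calcineurin A. Its 1 probe (chr3:136872888-136872948, mm8, plus strand) read 1.97, 2.07 and 1.81 in Th9 stim cells, against 0.97, 0.89 and 0.85 in Th9 cells. The groups did not overlap, and the lowest Th9 stim array was Th9 stim 3. The difference was 1.04 (SE 0.108, adjusted p = 9.29e-06), a 2.06-fold higher signal.

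Ppp3cb encodes the beta isoform of the same subunit and moved the other way. Its representing probe (chr14:19288595-19288654, mm8, minus strand) read 1.84, 1.86 and 1.81 in Th9 stim cells, against 2.37, 2.39 and 2.34 in Th9 cells. Both groups were tight and lay apart, and the difference was -0.53 (SE 0.0893, adjusted p = 0.00037). The other 3 probes of the gene fell too, by 0.39, 0.57 and 0.70, with adjusted p between 0.000888 and 0.0158. The calls of A_51_P256818 and A_52_P457382 were lost when slide was a block (adjusted p = 0.0942 and 0.133). The third isoform gene, Ppp3cc, belongs to the list of calcineurin subunits and inhibitors described further on and was also lower, with a difference of -1.83 (SE 0.183, adjusted p = 7.26e-06).

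Rcan1 encodes regulator of calcineurin 1, which binds calcineurin and inhibits it, and its transcription from an internal start is a textbook NFAT response. The gene has alternative first exons. RefSeq gives 2 starts for it on GRCm38.p6, and the 250 bases before each are shown because the inhibitor gene rose after restimulation and its starts differ in the NFAT core motif. Capitals mark GGAAA on either strand (TTTCC where it lies on the other strand), and both windows are on the minus strand of chromosome 16.
Rcan1, upstream start, chr16:92466170-92466419: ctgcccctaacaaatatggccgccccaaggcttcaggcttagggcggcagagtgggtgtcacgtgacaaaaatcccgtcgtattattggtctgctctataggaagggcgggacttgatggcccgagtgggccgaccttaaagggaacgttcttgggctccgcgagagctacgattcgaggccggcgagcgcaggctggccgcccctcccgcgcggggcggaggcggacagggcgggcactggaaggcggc
Rcan1, internal start, chr16:92400079-92400328: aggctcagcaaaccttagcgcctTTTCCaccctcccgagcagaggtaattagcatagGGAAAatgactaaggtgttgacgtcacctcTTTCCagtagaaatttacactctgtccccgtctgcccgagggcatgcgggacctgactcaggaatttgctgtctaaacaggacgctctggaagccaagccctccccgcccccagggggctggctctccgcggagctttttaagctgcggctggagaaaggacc
The window before the internal start holds 3 matches and that before the upstream start 0. At least 1 match was found in 55.6% and at least 3 in 6.39% of all 32851 RefSeq mouse windows of that length. The motif TGANTCA, bound by the NFAT partner AP-1, was found once before the internal start and not before the upstream one, and occurs in 6.75% of all windows. Among the members with a window (7 further windows of Nfatc2, Nfatc3, Nfat5, Ppp3cb and Cabin1), GGAAA was found 3 times in 1 of the 2 Nfatc2 windows and in the Ppp3cb window, and 0 to 2 times in the rest. A match is a run of letters and not a shown binding site.

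Both Rcan1 probes rose. The representing probe (chr16:92281377-92281436, mm8, minus strand) read 0.42, 0.43 and 0.22 in Th9 stim cells, against -1.18, -0.49 and -0.77 in Th9 cells. Every Th9 stim array lay above every Th9 array, and Th9 1 was the lowest of the 12. The difference was 1.17 (SE 0.165, adjusted p = 9.75e-05), or 2.25-fold. The other probe (chr16:92284857-92286153, a stretch longer than the probe, as for one across an exon junction) read -3.02, -3.01 and -3.15 in Th9 stim cells and -4.52, -3.71 and -3.75 in Th9 cells, a difference of 0.94 (SE 0.191, adjusted p = 0.00129). Within an array, the signal of this second probe relative to the representing one changed by -0.23 between Th9 stim and Th9 cells (exact two-sided permutation test, p = 0.1, the smallest value 3 against 3 arrays allow). Both probes were designed to transcript variant 2. Which of the 2 starts the rise came from was not tested, and the probes' mm8 positions were not set against the GRCm38.p6 windows.

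Cabin1 encodes a nuclear scaffold protein that binds calcineurin and the transcription factor MEF2 and represses both. Its representing probe (chr10:75090026-75090085, mm8, minus strand) read 2.08, 1.90 and 1.92 in Th9 stim cells, against 1.39, 1.38 and 1.69 in Th9 cells. The groups lay apart, with Th9 3 the highest of the unstimulated arrays. The difference was 0.49 (SE 0.117, adjusted p = 0.00368), and the other 2 probes rose by 0.79 and 1.39 (adjusted p = 0.00192 and 2.77e-05). Compared within the slide that held Th9 stim 3 and the 3 Th9 arrays, the representing probe gave 0.44 (adjusted p = 0.0681), which is no longer a call. The stimulated arm of that comparison is 1 array, assumed to vary like the arrays of the other groups.

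Nfatc1, also called NFAT2 or NFATc1, is the family member whose own gene is switched on by NFAT. Alternative promoters and polyadenylation sites give it short and long forms. The array carried 2 probes, both on the minus strand of chromosome 18 of mm8. One (A_51_P220135, chr18:80810759-80810818) was designed to RefSeq transcript variant 1 and read 0.81, 0.28 and 0.39 in Th9 stim cells, against -0.69, -0.78 and -0.94 in Th9 cells. All 3 Th9 stim arrays were higher, Th9 stim 1 most of all. The difference was 1.30 (SE 0.137, adjusted p = 1.04e-05), or 2.46-fold.

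The other Nfatc1 probe (A_51_P517870, chr18:80768984-80769043), designed to transcript variant 2, is the brighter one and represents the gene. It read 0.97, 0.84 and 0.73 in Th9 stim cells, against 1.37, 1.59 and 1.29 in Th9 cells. Here all 3 Th9 stim arrays were lower. The difference was -0.57 (SE 0.109, adjusted p = 0.000854). Th9 stim 3 alone, set against the Th9 arrays of its slide, gave 1.20 at the variant 1 probe and -0.69 at the variant 2 probe. Within single arrays, the log2 signal of the variant 1 probe minus that of the variant 2 probe was -0.17, -0.55 and -0.34 in Th9 stim cells, against -2.06, -2.36 and -2.23 in Th9 cells. This ratio shows unequal change at the probes and not which transcript is the more abundant. Whether each probe detects only the transcript it was designed to was not tested. The ratio was 1.865 higher in Th9 stim cells, with no overlap (exact two-sided permutation test, p = 0.1, the smallest value possible here). It was -2.22, -2.004 and -2.07 in Th2 cells and -1.88, -2.04 and -2.11 in Treg cells, near the unstimulated Th9 values. A mean over both probes would have given Nfatc1 as 0.36 higher after restimulation (adjusted p = 0.015).

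**Figure D3:**
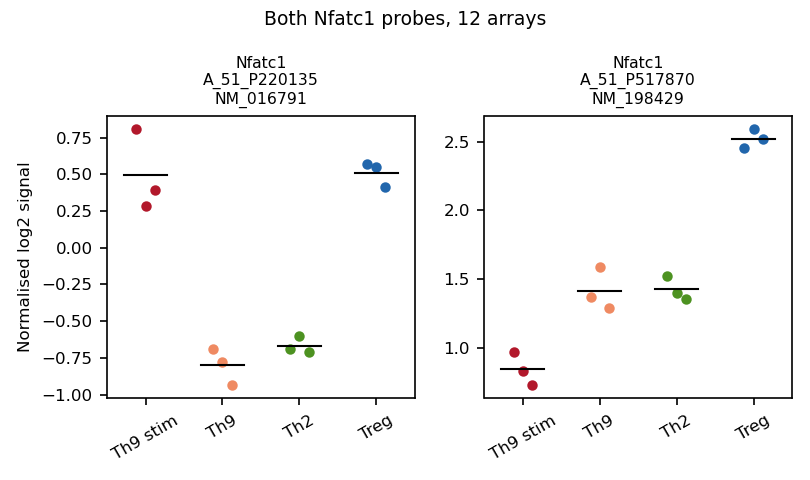
Normalised log2 signal of the 2 Nfatc1 probes on the y axis (axes differ) in Th9 stim, Th9, Th2 and Treg cells from left to right, with points for single arrays and lines for group means (n = 3). The Th9 stim arrays lie above the Th9 arrays in the panel of A_51_P220135 and below them in that of A_51_P517870, and the Treg arrays lie above the Th9 and Th2 arrays in both.

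Nfatc2 encodes NFAT1, the form that is ready in resting T cells. Its representing probe (chr2:168224890-168224949, mm8, minus strand) read -1.46, -2.11 and -1.50 in Th9 stim cells, against -2.12, -1.92 and -1.93 in Th9 cells. Th9 stim 2 lay among the Th9 arrays and the other Th9 stim arrays above them. The difference was 0.30 (SE 0.186, adjusted p = 0.184), with a 95% interval of -0.11 to 0.71, and 0.51 (adjusted p = 0.0177) without Th9 stim 2. The other 3 probes gave 0.37, 0.25 and -0.18, none of them called.

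Nfatc3 encodes NFAT4. Its representing probe (chr8:109017395-109017454, mm8, plus strand) read 1.37, 1.25 and 1.48 in Th9 stim cells, against 1.75, 1.72 and 1.82 in Th9 cells. The groups lay apart, and the difference was -0.40 (SE 0.115, adjusted p = 0.0105). The second tested probe (chr8:108981194-108981253) fell by 0.94 (adjusted p = 0.000443). With Th9 stim 3 as the only stimulated array of the shared slide, the first gave -0.28 (adjusted p = 0.144), which is not a call, and the second -0.76.

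Nfat5 encodes TonEBP, which shares the DNA-binding domain of the family but lacks the calcineurin docking region and is known for switching on genes against osmotic stress. All 6 of its probes rose, 5 of them by 0.77 to 1.56, with adjusted p between 7.54e-06 and 0.000974. The representing probe (chr8:110268323-110268382, mm8, plus strand) read 1.47, 1.23 and 0.998 in Th9 stim cells, against 0.50, 0.46 and 0.42 in Th9 cells. Th9 cells were uniformly low and Th9 stim 3 was the lowest of the stimulated arrays. The difference was 0.77 (SE 0.143, adjusted p = 0.000685), and Th9 stim 3 alone gave 0.54 against the Th9 arrays of its slide. The sixth (A_52_P177904) was not well above background on any Th9 array. With a bound in place of the Th9 signal, this probe was at least 3.44-fold higher in Th9 stim cells by the main processing. After normexp correction its difference was only 0.46, less than that bound. Those of the other 5 probes ran from 0.39 to 0.91 after this correction, and all 6 were still called.

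Genes known as targets of calcineurin and NFAT in T cells were followed beside the members. Of 23 tested, 19 were called higher and 1 lower in Th9 stim than in Th9 cells, with a median difference of 3.23. Over all genes 33.2% were called higher and 30.6% lower. The list was chosen with earlier results of these data known, and whether NFAT drove these changes was not tested. The interleukin genes Il3 and Il2 were not well above background in Th9 cells. Il3 read 5.86, 5.06 and 3.09 in Th9 stim cells, at least 1750-fold higher (adjusted p = 7.57e-08), and Il2 read 1.09, 1.12 and -0.37 there (adjusted p = 4.02e-07). Csf2, the gene of GM-CSF, read 4.05, 3.33 and 0.65 in Th9 stim cells, against -4.81, -4.48 and -4.40 in Th9 cells, a difference of 7.24 (SE 0.693, adjusted p = 5.19e-06). The chemokine gene Xcl1 read 4.16, 3.19 and -0.11 in Th9 stim cells and -5.68, -5.89 and -6.35 in Th9 cells, where 1 of 3 arrays was above background. Th9 stim 3, the array that shared a slide with the Th9 arrays, was the lowest stimulated array for all 4 of these genes. For the 8 pathway genes it was the lowest stimulated array at the representing probes of Nfatc1, Nfat5, Rcan1, Ppp3ca and Ppp3cb, and the highest for Nfatc3.

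The remaining components of the pathway moved in both directions after restimulation, as did genes at large. The shares to hold beside all list counts after restimulation are those of all genes, 33.2% higher and 30.6% lower. Of 10 tested calcineurin subunits, calmodulins and inhibitors, 5 were called higher and 3 lower (median 0.28). The calmodulin gene Calm2 rose by 0.92 (adjusted p = 0.000118), and Chp1, which encodes a calcineurin B homologous protein, fell with a difference of -1.62 (adjusted p = 2.73e-05). Under quantile normalisation 5 of the 10 were called in place of 8. Of 11 further NFAT proteins, NFAT kinases and retention factors, 3 were called in each direction (median 0.18). Nfatc4, the remaining calcineurin-regulated NFAT gene, fell with a difference of -1.58 (adjusted p = 3.75e-06). The casein kinase 1 genes Csnk1d and Csnk1e, whose products phosphorylate NFAT, and the scaffold gene Homer3, whose product binds NFAT, rose by 1.03, 0.64 and 0.75 (adjusted p between 5.69e-05 and 0.000792).

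Of 14 genes of calcium entry and handling downstream of the T cell receptor, 4 were called higher and 7 lower (median -0.29). Over all genes 33.2% were called higher and 30.6% lower. Plcg1, encoding the phospholipase that makes the calcium-releasing messenger IP3, read 1.61, 1.57 and 2.05 in Th9 stim cells, against 4.37, 4.14 and 4.08 in Th9 cells, a difference of -2.45 (SE 0.146, adjusted p = 2.44e-07). The IP3 receptor gene Itpr2 fell with a difference of -1.82 (adjusted p = 3.11e-06). Atp2a2, encoding the pump that refills the endoplasmic reticulum, rose by 2.37 (adjusted p = 1.17e-06). The potassium channel gene Kcna3 was not well above background in Th9 cells and was at least 2.48-fold higher in Th9 stim cells.

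Of 6 tested genes of the osmotic stress response of NFAT5, 3 were called higher and 1 lower (median 0.50), where 33.2% of all genes were called higher and 30.6% lower. The myo-inositol transporter gene Slc5a3, the taurine transporter gene Slc6a6 and the aldose reductase gene Akr1b3 rose by 1.11, 0.92 and 0.84 (adjusted p between 4.2e-05 and 0.000256). The heat shock protein gene Hspa4l fell with a difference of -1.17 (adjusted p = 0.000117). Of 9 genes of Cabin1 partners, 2 were called higher and 5 lower (median -0.54), beside the same shares of all genes. The MEF2 gene Mef2d and the class II histone deacetylase genes Hdac4 and Hdac7 fell with differences of -1.22, -1.34 and -1.59 (adjusted p between 4.92e-06 and 6.52e-05), and the histone chaperone gene Hira rose by 1.04 (adjusted p = 0.000142). Markers of other cells moved at the same time. The CD8 T cell and NK cell list was called lower for 4 of 5 tested genes, with a summed signal of 2.91 to 16.9 times the 75th percentile on Th9 stim arrays and 23.2 to 30.5 times on Th9 arrays. The B cell list was called lower for 5 of 8, with 0.759 to 2.59 against 4.88 to 6.44, and Blk and Fcrla were below background on every Th9 stim array. Pax5 and Ms4a1 were higher on Th9 stim 1 and Th9 stim 2 than on any Th9 array, and lower on Th9 stim 3. Pax5 read -3.46, -2.98 and -5.86 in Th9 stim cells, against -4.16, -5.01 and -4.20 in Th9 cells. Ms4a1 read -0.25, -0.0002 and -3.73, against -1.10, -0.66 and -0.28. Th9 stim 3 stood apart here, with the sums of 2.91 and 0.759, while Th9 stim 1 and Th9 stim 2 had 16.9 and 16.2 for the first list and 2.14 and 2.59 for the second. It is the array behind the shared-slide values above and had the lowest stimulated signals of Il3, Il2, Csf2 and Xcl1. Without it 4 members were called higher and 3 lower, as with it. The myeloid and dendritic cell list had 2 of 6 tested genes called higher and 2 lower. Its sums were 0.56 to 0.989 on Th9 stim arrays and 1.68 to 2.7 on Th9 arrays. In the T cell list 2 of 8 were called higher and 4 lower, with overlapping sums of 273 to 306 and 256 to 300. The part of these markers in the differences above was not tested.

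The second comparison, Th9 against Th2 cells, sets a culture with IL-4 and TGF-b against one with IL-4 alone. Of the 8 genes only Ppp3ca was called, lower in Th9 cells. This is 1 of 8 lower and 0 higher, where 9.26% of all genes were called lower and 7.76% higher, and the members' median was -0.05 beside -0.03. By probe, 5 of 24 were called, all lower in Th9 cells, against 16.2% of all probes in either direction. They belong to Ppp3ca, Nfat5 (3 probes) and Nfatc2 (1 probe).

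Ppp3ca read 0.97, 0.89 and 0.85 in Th9 cells, against 2.15, 2.17 and 2.16 in Th2 cells. The 3 Th2 arrays were nearly identical and all above the Th9 arrays. The difference was -1.25 (SE 0.108, adjusted p = 4.91e-05), so that the signal in Th2 cells was 2.39 times that in Th9 cells. Blocking on the slide gave -1.01 (adjusted p = 0.0946), which is not a call. Slide and culture are linked here only through the other groups, and with the block 188 genes were called higher and 129 lower in place of 1390 and 1658.

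Nfat5 read 0.50, 0.46 and 0.42 in Th9 cells, against 0.97, 0.96 and 0.68 in Th2 cells. The groups did not overlap, but the difference of -0.41 (SE 0.143, adjusted p = 0.0763) missed the threshold. It was called in the fit that pairs same-numbered arrays (-0.41, adjusted p = 0.0298), after background correction with normexp (-0.53, adjusted p = 0.0145), as the mean of its probes (-0.55, adjusted p = 0.0435) and without the arrays numbered 3 (-0.48, adjusted p = 0.0252). Blocking on the slide gave 0.05 (adjusted p = 0.976). Of its other probes, 3 were called lower in Th9 cells, and none of them when slide was a block. A_52_P54486 was lower by 0.68 and A_52_P204606 by 0.77. A_52_P177904 was below background on all Th9 arrays and above it on 1 of 3 Th2 arrays. By the main processing it was at least 1.42-fold lower in Th9 cells (adjusted p = 0.031). After normexp correction its difference was only -0.05, less than that bound, and was not called (adjusted p = 0.639).

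The other members were not called. Their 95% intervals ran from -0.25 to 0.23 for Nfatc1, from -0.08 to 0.43 for Nfatc3, from -0.33 to 0.40 for Rcan1, from -0.08 to 0.32 for Ppp3cb, from -0.35 to 0.17 for Cabin1 and from -0.73 to 0.09 for Nfatc2. Rcan1 stood at -1.18, -0.49 and -0.77 in Th9 cells and at -0.89, -0.997 and -0.67 in Th2 cells, with full overlap. After normexp correction the Ppp3cb probe A_52_P306396 was called higher in Th9 cells (0.38, adjusted p = 0.00726). One Nfatc2 probe (A_51_P195843) was called lower in Th9 cells, with a difference of -0.62 (SE 0.174, adjusted p = 0.0348). Blocking on the slide (-0.57, adjusted p = 0.674) and normexp correction (-0.15, adjusted p = 0.157) each ended this call.

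In each gene list set around the members, most genes missed the threshold for Th9 against Th2 cells. The shares to hold beside the counts below are those of all genes, 9.26% lower and 7.76% higher in Th9 cells. Of the calcineurin list 3 of 10 were lower in Th9 cells and 0 higher (median 0.00). Among them were Fkbp1a, encoding the binding protein of the calcineurin inhibitor drug FK506, with -1.26 (adjusted p = 0.000831), and the calmodulin gene Calm3 with -0.52. Calm3 missed the threshold under quantile normalisation (-0.45, adjusted p = 0.0501). Of the kinase list 1 of 11 was higher and 1 lower (median 0.13). Lrrk2, encoding a kinase reported to hold NFAT in the cytoplasm, was not well above background in Th2 cells and at least 3.87-fold higher in Th9 cells (adjusted p = 7.01e-05), and Csnk1e differed by -0.56 (adjusted p = 0.0111). Of the calcium list 1 of 14 was higher, the plasma membrane pump gene Atp2b1 (0.37), and 2 were lower, Itpr2 (-0.88) and Kcna3, below background in Th9 cells and at least 2.01-fold lower there (median -0.08).

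Set against Th2 cells, Th9 cells had 2 of the 23 NFAT targets higher and 5 lower (median -0.25). Csf2 stood at -4.81, -4.48 and -4.40 in Th9 cells and at -0.95, -1.10 and -0.82 in Th2 cells, a difference of -3.61 (SE 0.693, adjusted p = 0.00609). Il13 was lower with -1.56 (adjusted p = 0.00125) and Fasl, the death ligand gene, was higher with 2.10 (adjusted p = 0.00412). Il3 was below background in Th9 cells and above it on 2 of 3 Th2 arrays. By the main processing it was at least 1.48-fold lower in Th9 cells. This call ended after normexp correction (-0.32, adjusted p = 0.693), with a difference less than that bound. Of 6 NFAT5 targets with a median of -0.31, 1 was called, Akr1b3, with 1.05 (adjusted p = 0.00013). Of 9 Cabin1 partners with a median of -0.01, 1 was called, Hdac4, with 1.11 (adjusted p = 0.000286). Both were higher in Th9 cells. Of the pathway genes named here for Th9 against Th2 cells, only Fkbp1a and Lrrk2 were also called when slide was a block. B cell markers were called higher in Th9 cells for 3 of 8, with summed signals of 4.88 to 6.44 in Th9 cells and 2.44 to 4.13 in Th2 cells. Of the CD8 T cell and NK cell markers 1 of 5 was called, Eomes, 1.70 higher in Th9 cells (list median 1.09), and the list's summed signals were 23.2 to 30.5 in Th9 cells and 15 to 19.5 in Th2 cells, without overlap. The part of either list was not tested.

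Th9 cells and Th2 cells were last each set against Treg cells, which had been cultured without IL-4. They share the Treg arrays, and their values are therefore given side by side. No Th9 array shared a slide with a Treg array. With slide as a block, the Th9 against Treg differences therefore run through the Th9 stim arrays, with Th9 stim 3 alone on the slide of the Th9 arrays. The Th2 against Treg differences with this block set the Th2 arrays against Treg 1 alone, the only Treg array of their slide. Nfatc1, Nfatc3, Nfat5, Ppp3ca and Cabin1 were lower in both the Th9 and the Th2 culture, and Rcan1, Nfatc2 and Ppp3cb were not called by their representing probes. In Th9 against Treg cells 0 of 8 were higher and 5 lower, where 28.8% of all genes were called higher and 35.3% lower, and the median was -0.96 beside -0.11. In Th2 against Treg cells 0 of 8 were higher and 5 lower, where 29.3% were called higher and 33.5% lower, and the median was -0.75 beside -0.08. By probe, 17 of 24 were called for Th9 (3 higher, 14 lower), against 64.4% of all probes, and 13 of 24 for Th2 (4 higher, 9 lower), against 63.5%.

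Ppp3ca differed the most of the 8 genes between Th9 and Treg cells. It read 0.97, 0.89 and 0.85 in Th9 cells and 2.15, 2.17 and 2.16 in Th2 cells, against 3.63, 3.76 and 3.43 in Treg cells. No array of one culture overlapped with another culture. The differences were -2.70 (SE 0.108, adjusted p = 1.75e-08) for Th9 and -1.45 (SE 0.108, adjusted p = 1.07e-06) for Th2, so that the signal in Treg cells was 6.52 and 2.73 times as high. The order of the 4 groups ran from Th9 over Th9 stim and Th2 to Treg cells, with no overlap between neighbours. Restimulated Th9 cells stayed below Th2 cells by their group means of 1.95 ± 0.131 and 2.16 ± 0.0069 (SD, n = 3 each).

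Nfatc1 was lower than in Treg cells at both probes. The variant 2 probe read 1.37, 1.59 and 1.29 in Th9 cells and 1.52, 1.40 and 1.36 in Th2 cells, against 2.45, 2.59 and 2.52 in Treg cells. Th9 and Th2 arrays were intermingled and all below the Treg arrays, with differences of -1.10 (SE 0.109, adjusted p = 8.14e-06) and -1.09 (SE 0.109, adjusted p = 8.54e-06). The variant 1 probe read -0.69, -0.78 and -0.94 in Th9 cells and -0.69, -0.60 and -0.71 in Th2 cells, against 0.57, 0.55 and 0.41 in Treg cells. It differed by -1.31 (SE 0.137, adjusted p = 1.18e-05) and -1.18 (SE 0.137, adjusted p = 2.51e-05). At this probe the Th9 stim arrays reached the range of the Treg arrays, while at the variant 2 probe they were the lowest of all.

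Nfatc3 read 1.75, 1.72 and 1.82 in Th9 cells and 1.60, 1.57 and 1.59 in Th2 cells, against 2.92, 3.01 and 3.33 in Treg cells. The Treg arrays stood clear of all others. The differences were -1.32 (SE 0.115, adjusted p = 3.2e-06) and -1.50 (SE 0.115, adjusted p = 1.34e-06), and the second tested probe gave -1.30 and -1.63. Cabin1 read 1.39, 1.38 and 1.69 in Th9 cells and 1.52, 1.46 and 1.75 in Th2 cells, against 2.62, 2.66 and 2.69 in Treg cells, again with the Treg arrays apart. It differed by -1.17 (SE 0.117, adjusted p = 8.76e-06) and -1.08 (SE 0.117, adjusted p = 1.57e-05). Its second probe (A_52_P423384) was called lower as well (-0.86 and -0.75), and its Th9 call was lost with slide as a block (-0.95, adjusted p = 0.0543). The third was not called (-0.32 and -0.15).

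Nfat5 was lower than in Treg cells at all 6 probes for Th9 cells and at 1 of 6 for Th2 cells. At 5 of them the Th9 differences ran from -0.42 to -0.85. By the main processing A_52_P177904, below background in Th9 cells, was at least 1.75-fold lower there (adjusted p = 0.00102). With slide as a block this last probe was the 1 of 6 called for Th9 cells (adjusted p = 0.00944), and A_52_P54486 gave -0.29 (adjusted p = 0.535). After normexp correction A_52_P177904 and A_51_P135309 were not called for Th9 cells (adjusted p = 0.218 and 0.13). The difference of A_52_P177904 was then only -0.09, less than its bound. The representing probe read 0.50, 0.46 and 0.42 in Th9 cells and 0.97, 0.96 and 0.68 in Th2 cells, against 1.35, 1.42 and 1.08 in Treg cells. The Th9 arrays were lowest and the Treg arrays highest. For Th9 the difference was -0.82 (SE 0.143, adjusted p = 0.000487), and -0.43 (adjusted p = 0.203) with slide as a block. For Th2 it was -0.41 (SE 0.143, adjusted p = 0.0265), and this call was lost without Th2 3 (-0.32, adjusted p = 0.0973), without Treg 1 (-0.38, adjusted p = 0.0775) and without Treg 2 (-0.35, adjusted p = 0.0949). It was also lost after normexp correction (-0.31, adjusted p = 0.0629) and as the mean of the probes (-0.21, adjusted p = 0.286). With slide as a block the call was lost too (-0.48), with Treg 1 as the only Treg array.

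Rcan1 read -1.18, -0.49 and -0.77 in Th9 cells and -0.89, -0.997 and -0.67 in Th2 cells, against -0.34, -0.51 and -0.54 in Treg cells. Th9 2 lay within the Treg range and the other Th9 and Th2 arrays below it. The differences of -0.35 (SE 0.165, adjusted p = 0.0856) and -0.39 (SE 0.165, adjusted p = 0.0619) missed the threshold. They passed it without Th9 2 (-0.51, adjusted p = 0.0191) and without Th2 3 (-0.48, adjusted p = 0.0443), and the Th2 difference also after normexp correction (-0.44, adjusted p = 0.0121) and with 6 arrays alone (-0.39, adjusted p = 0.0348). The highest Rcan1 signals of the series were on the Th9 stim arrays, which did not overlap with any other group.

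Ppp3cb and Nfatc2 gave different answers against Treg cells from probe to probe, and sequences of probes that differed are given here. The file names the probes by the cDNA they were designed to. No annotation of mm8 was used here, so whether a probe lies in an exon of every transcript was not tested. The sequences are 5' to 3', all 60 bases where a forward reading frame runs through the probe without a stop codon and otherwise the first 30, and all map to the minus strand of mm8.
Ppp3cb, A_51_P256818, chr14:19304052-19304111: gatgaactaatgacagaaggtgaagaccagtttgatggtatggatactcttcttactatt
Ppp3cb, A_52_P457382, chr14:19296466-19296525: agctgctttcctaaatctgtctgtctttct
Nfatc2, A_52_P628171, chr2:168227462-168227521: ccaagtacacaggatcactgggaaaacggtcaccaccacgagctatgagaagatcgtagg
Nfatc2, A_52_P73436, chr2:168224890-168224949: gtaatcatgattctcacttgagttcatctc
The first of each pair has an open frame, and the second has none.

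For Ppp3cb, probe A_52_P457382 (cDNA AK135203) read 2.60, 2.41 and 2.50 in Th9 cells and 2.56, 2.62 and 2.53 in Th2 cells, against 1.58, 1.46 and 1.14 in Treg cells. All Th9 and Th2 arrays lay above all Treg arrays, with differences of 1.11 (SE 0.121, adjusted p = 1.66e-05) and 1.17 (SE 0.121, adjusted p = 1.05e-05). Probe A_51_P256818 (cDNA AK171904) went the other way, with 0.47, 0.36 and 0.07 in Th9 cells and 0.51, 0.42 and 0.36 in Th2 cells, against 1.23, 1.06 and 0.51 in Treg cells. Treg 3 lay beside the highest Th2 array and the other Treg arrays well above it. The differences were -0.63 (SE 0.177, adjusted p = 0.00922) and -0.50 (SE 0.177, adjusted p = 0.0284). Blocking on the slide ended the call for Th9 cells, with -0.54 (adjusted p = 0.204). The 2 probes designed to the RefSeq transcript, which include the representing one, were not called in either comparison, with differences from -0.09 to 0.28. After normexp correction both were called for Th2 against Treg cells, in opposite directions. A_52_P306396 gave -0.27 (adjusted p = 0.0114) and A_51_P412191 gave 0.24 (adjusted p = 0.0428). After restimulation, in contrast, all 4 probes had moved the same way.

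**Figure D4:**
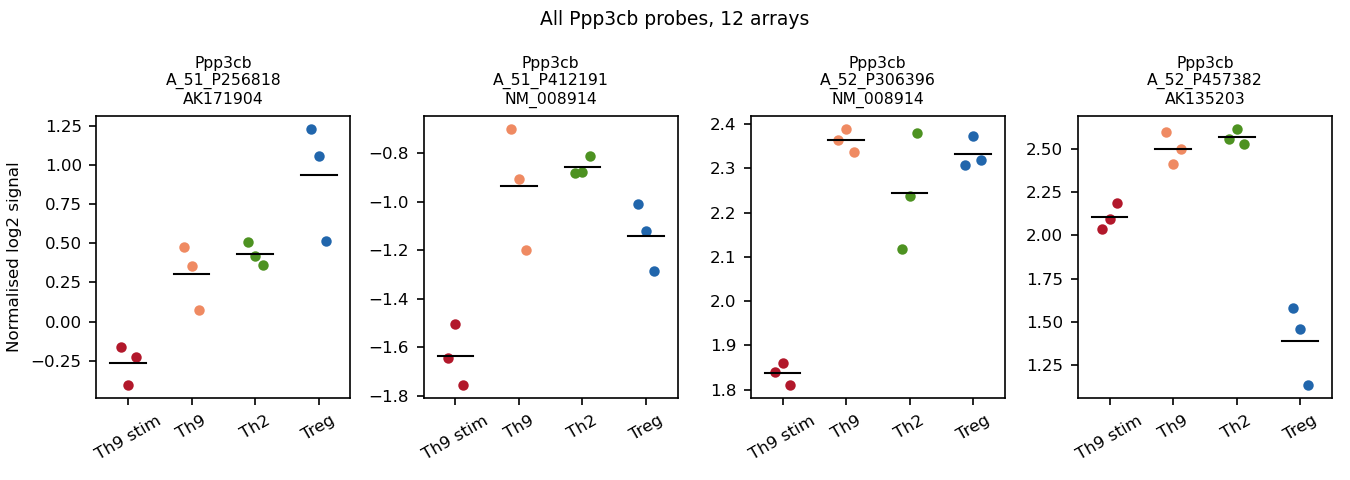
Normalised log2 signal of the 4 Ppp3cb probes on the y axis (axes differ) in Th9 stim, Th9, Th2 and Treg cells from left to right, with points for single arrays and lines for group means (n = 3). The Treg arrays have the highest mean in the panel of A_51_P256818 and the lowest signals in that of A_52_P457382, while the Th9 stim arrays lie below the Th9 arrays in all 4.

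For Nfatc2, the representing probe A_52_P73436 (cDNA AK081853) read -2.12, -1.92 and -1.93 in Th9 cells and -1.47, -1.57 and -1.97 in Th2 cells, against -1.47, -1.54 and -1.70 in Treg cells, and was not called (-0.42 and -0.10, adjusted p = 0.0705 and 0.666). The 3 probes designed to the RefSeq transcript were all called higher in Th2 than in Treg cells. Probe A_51_P195843 read -4.21, -4.24 and -4.63 in Th9 cells and -3.54, -3.65 and -4.02 in Th2 cells, against -5.04, -5.05 and -4.75 in Treg cells. Th2 arrays were highest, Th9 arrays between and Treg arrays lowest, with differences of 0.59 (SE 0.174, adjusted p = 0.0122) and 1.21 (SE 0.174, adjusted p = 0.000121). For Th9 cells, blocking on the slide gave 0.74 (adjusted p = 0.125), no longer a call. Probe A_52_P628171 gave 0.51 (SE 0.204, adjusted p = 0.0473) and 0.97 (SE 0.204, adjusted p = 0.0017). Its Th9 call was lost when slide was a block (0.12, adjusted p = 0.827) and after normexp correction (0.27, adjusted p = 0.0533). Probe A_51_P195849 gave 0.24 (SE 0.146, adjusted p = 0.166) and 0.53 (SE 0.146, adjusted p = 0.00875). When slide was a block, with Treg 1 as the only Treg array, its Th2 difference fell to 0.28, no longer a call. With only the 6 arrays compared, the representing probe passed the threshold for Th9 cells (-0.42, adjusted p = 0.0205). As the mean of its probes, Nfatc2 was 0.65 higher in Th2 than in Treg cells (adjusted p = 0.00246).

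**Figure D5:**
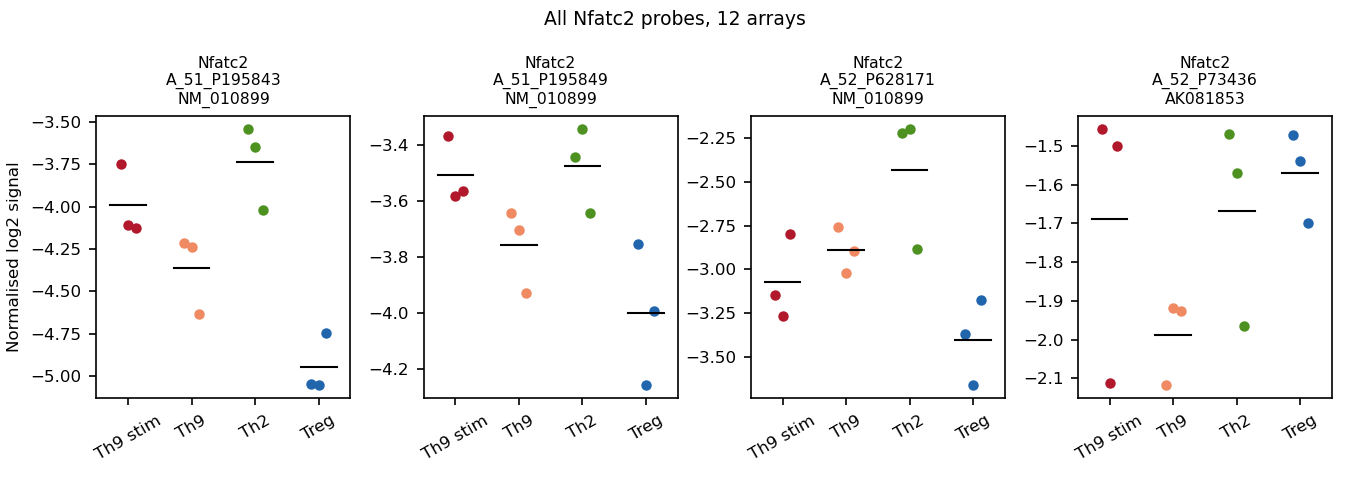
Normalised log2 signal of the 4 Nfatc2 probes on the y axis (axes differ) in Th9 stim, Th9, Th2 and Treg cells from left to right, with points for single arrays and lines for group means (n = 3). The Treg group has the lowest mean in the panels of the 3 RefSeq probes and the highest in that of A_52_P73436.

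The rest of the pathway differed from Treg cells in both directions, as did genes at large. The shares to hold beside all list counts against Treg cells below are those of all genes. For Th9 cells 28.8% were called higher and 35.3% lower, and for Th2 cells 29.3% and 33.5%. Of 10 calcineurin subunits and inhibitors, 5 were higher and 1 lower in Th9 cells (median 0.43) and 6 higher and 1 lower in Th2 cells (median 0.57). The third catalytic subunit gene Ppp3cc, read at 4.96, 5.12 and 5.09 in Th9 cells and 3.44, 3.40 and 4.005 in Treg cells, was 1.44 higher in Th9 cells and 1.02 higher in Th2 cells (adjusted p = 5.19e-05 and 0.000603). This is opposite in direction to Ppp3ca. Fkbp1a was 0.89 and 2.15 higher, and the cyclophilin A gene Ppia 0.80 higher in Th9 cells. Chp1 was 0.82 higher in Th9 cells, the calcineurin inhibitor gene Rcan3 0.73 higher in Th2 cells, and Ppp3r1, encoding the regulatory subunit calcineurin B, differed by -0.72 (adjusted p = 0.00339) in Th2 cells.

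Of the 11 further NFAT proteins, kinases and retention factors, 2 were higher and 3 lower in Th9 cells (median 0.00) and 3 higher and 3 lower in Th2 cells (median -0.15). Lrrk2 read -4.05, -3.52 and -4.28 in Th9 cells, was below background in Th2 cells, and read -0.93, -0.96 and -1.47 in Treg cells. It differed by -2.83 (SE 0.248, adjusted p = 3.26e-06) in Th9 cells and was at least 27.6-fold lower in Th2 than in Treg cells. Nfatc2ip, encoding an NFAT-interacting protein, was lower by 1.14 and 1.13 and Csnk1d by 0.90 and 0.86. Gsk3b, encoding the kinase GSK3 beta that sends NFAT out of the nucleus, was 1.06 and 1.31 higher.

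Of 14 calcium genes, 2 were higher and 7 lower in Th9 cells (median -0.46) and 3 higher and 7 lower in Th2 cells (median -0.38). The calcium channel gene Orai2 differed by -1.96 (adjusted p = 2.68e-06) and -1.49 (adjusted p = 2.05e-05). Kcna3 was at least 3.07-fold lower in Th9 than in Treg cells and Itpr2 differed by -1.47 there, while the calcium sensor gene Stim2 and the channel gene Orai3 differed by -1.42 and -1.10 in Th2 cells. Atp2b1 was 1.31 and 0.94 higher. Among 23 NFAT targets, 11 were higher and 8 lower in Th9 cells (median 0.83) and 11 higher and 7 lower in Th2 cells (median 1.05). Il4 and Il5, the cytokine genes of IL-4-driven cultures, led these: Il5 was below background in Treg cells and at least 187-fold higher in Th9 and at least 184-fold higher in Th2 cells. Il4 differed by 9.96 (SE 0.398, adjusted p = 1.75e-08) and 11.03 (SE 0.398, adjusted p = 9.59e-09), with 1 of 3 Treg arrays above background. The costimulatory receptor gene Tnfrsf9 was 5.14 and 5.39 higher, Il21 was at least 10-fold higher in Th9 cells, and Xcl1 was at least 10.9-fold lower in Th2 cells.

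Of 6 NFAT5 targets, 3 were higher and 3 lower in Th9 cells (median -0.14), and 3 higher and 2 lower in Th2 cells (median 0.21). Hspa4l and Slc5a3 were higher, by 1.59 and 1.16 in Th9 cells and by 1.89 and 1.16 in Th2 cells. Akr1b3 differed by -1.14 and -2.19 and the betaine transporter gene Slc6a12, above background on 1 of 3 Th9 and 1 of 3 Th2 arrays, by -1.41 and -1.09. Of 9 Cabin1 partners, 2 were higher and 4 lower in each comparison (medians -0.24 and -0.11). Mef2d was lower with -1.65 (adjusted p = 2.31e-06) and -1.66 (adjusted p = 2.29e-06), Ubn1 with -0.61 and -0.57, and Mef2c with -2.38 and -3.80. Blocking on the slide turned Mef2c to 1.88 higher in Th9 cells. That estimate runs through the Th9 stim arrays, where Mef2c read -2.30, -1.91 and -6.27, the last on Th9 stim 3. Under quantile normalisation the Th9 call of Mef2c was lost (-2.40, adjusted p = 0.0504). Hdac4 was 1.60 higher in Th9 cells and Hdac7 0.87 higher in Th2 cells. The calls of Fkbp1a, Chp1, Nfatc2ip, Csnk1d and Slc6a12 in Th9 against Treg cells were lost when slide was a block (adjusted p between 0.0663 and 0.35), and that of Xcl1 in Th2 against Treg cells after normexp correction (adjusted p = 0.132).

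Markers of other cells differed between the cultures beside all of these. The B cell list was called lower for 7 of 8 genes in Th9 cells (median -3.67) and for 8 of 8 in Th2 cells (median -4.28). Its summed signal was 4.88 to 6.44 times the 75th percentile in Th9 cells and 2.44 to 4.13 times in Th2 cells, against 51.6 to 70.7 times in Treg cells, where all 8 markers were above background on every array. The T cell list was lower for 5 of 8 in Th9 cells and 6 of 8 in Th2 cells, with sums of 256 to 300 and 317 to 328 against 470 to 573 in Treg cells. The myeloid and dendritic cell list was called for 5 of 6 in each comparison, 1 higher and 4 lower. Its sums overlapped, at 1.68 to 2.7 and 2.15 to 2.55 against 1.25 to 2.49, and Lyz2 and Itgam were above background in Treg cells alone. Of 5 tested CD8 T cell and NK cell markers, 1 was higher and 1 lower in Th9 cells, and 1 higher and 2 lower in Th2 cells. Their sums were 23.2 to 30.5 and 15 to 19.5 against 23.6 to 43.6 in Treg cells. Of 3 tested mast cell and basophil markers, 0 were higher and 2 lower in Th9 cells, and 0 higher and 1 lower in Th2 cells. Cpa3 was above background on 3 Treg, 0 Th9 and 2 Th2 arrays. Mcpt4 was so on 3 Treg, 3 Th9 and 2 Th2 arrays, and Fcer1a on 3 arrays of each culture. Mcpt8, not tested, was above background on 1 Th2 array. The part of these cells in the differences of the pathway genes was not tested.

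Genes whose pattern over the 12 arrays was most like that of each member were found by Pearson's r over 13807 other named genes. These r values describe 12 arrays in 4 groups on 3 slides that all pairs of genes share. For Nfatc1 (variant 2 probe) they were Ap5z1 (r = 0.992), Nudt16 (r = 0.990) and Cxxc5 (r = 0.989). For Nfatc3 they were Stk4 (r = 0.993), Tmem9b (r = 0.993) and Il18r1 (r = 0.992), and for Cabin1 Trim39 (r = 0.986), Icam2 (r = 0.985) and Snapc5 (r = 0.985). All of these were highest in Treg cells. Ppp3ca was most like Shfl (r = 0.989), Cdc42ep3 (r = 0.985) and Ccl5 (r = 0.978), which had the same order of group means. Rcan1 was most like Dnajb5 (r = 0.977), Arhgap35 (r = 0.973) and Dus1l (r = 0.973), all highest in Th9 stim cells. Ppp3cb was most like Cep192 (r = 0.975), Dennd1a (r = 0.972) and Phkb (r = 0.972), all lowest in Th9 stim cells. Nfat5 was most like Ctu1 (r = 0.974), B930095G15Rik (r = 0.969) and Mnt (r = 0.967), all lowest in Th9 cells. Nfatc2 had the weakest match, Gstm2 (r = 0.926), Clip4 (r = 0.841) and Gpr139 (r = 0.808).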

How the data were processed

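Gene expression was measured on one-colour (Cy3) Agilent arrays, 12 in all. Per the file headers, the deposited intensity values are gProcessedSignal from Agilent Feature Extraction 10.5.1.1, background-subtracted by that program. The authors also deposited a table of log2 values whose normalisation the sources used here do not state. It served as an alternative. Here the intensity was taken to log2, each array was centred on its 75th percentile, and control spots and outlier flags were left out. Probes well above background on at least 3 of 12 arrays were kept, which leaves out genes dim on all arrays. No member spot was saturated. The probe with the highest mean stood for a gene.

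limma 3.58.1 in R 4.3.3 fitted 1 mean per group over all 12 arrays, and p-values were adjusted by Benjamini-Hochberg over 17912 genes. Values of other probes come from the same model over 27086 probes. The 4 comparisons were: Th9 stim against Th9, Th9 against Th2, and Th9 and Th2 each against Treg cells. The members and gene lists were chosen with earlier results of these data known. Up to 4 called genes with the largest differences were named per list, and the 3 genes of highest r per member. A listed gene that this rule would name is not reported here. A bound for a probe below background in a group was set at the dimmest signal that still counted as well above background on an array, or at its own where higher. Such a bound holds for the main processing alone, and differences after normexp correction can be smaller. On simulated data for Th9 stim against Th9 cells (17912 genes), 62% of 100 changes of 1 and 85% of 100 changes of 2 on the log2 scale were recovered. No other gene was changed there, whereas 11417 genes were called in the data. The adjustment is stricter with so few changes, so these shares do not give the recovery in the data. The main fit does not pair arrays. Same-numbered arrays of Th9 and Th2 deviated together (r = 0.201, 0.185 and 0.412), as seen in the data and not from a label. For Th9 stim and Th9 arrays r was 0.209, 0.108 and 0.0946, and it ran from -0.00724 to 0.141 in the comparisons with Treg cells. Pairing by replicate number was therefore kept as an alternative. Alternatives were quantile and normexp normalisation, the deposited table, other filters, the mean of probes, slide and replicate number as blocks, 6 arrays alone and leaving out arrays. Promoter windows come from RefSeq, GRCm38.p6, and probe positions from the array annotation (mm8). The number of arrays limits the precision.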

Additional observations from a re-analysis of the deposited data

How the results depend on the processing

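Of 528 member values under the alternatives, 481 kept their direction and their side of the threshold and 21 turned sign. Nfatc1 between Th9 and Th2 cells turned to 0.12 with normexp, 0.0218 with quantile normalisation, 0.0223 with the deposited table and 0.0589 with slide as a block, and leaving out arrays gave -0.0968 to 0.0514. Rcan1 in that comparison ranged from -0.12 to 0.22 when arrays were left out. Normexp gave -0.14 for Ppp3cb between Th9 and Th2 cells, where another probe (A_52_P457382) then stood for the gene. The probe of the main processing, A_52_P306396, gave 0.38 there (adjusted p = 0.00726). For Th2 against Treg cells normexp gave 0.0251 for Nfatc2 and, again by A_52_P457382, 1.25 for Ppp3cb. Averaging a gene's probes gave 0.36 for Nfatc1 in Th9 stim against Th9 cells and -0.0383 for Ppp3cb in Th9 against Th2 cells. It gave 0.23 for Nfatc2 in Th9 against Treg cells, and 0.65 for Nfatc2 and 0.22 for Ppp3cb in Th2 against Treg cells. Leaving out arrays moved Nfatc2 in Th2 against Treg cells between -0.197 and 0.0503. With slide as a block, Nfatc3 and Nfat5 between Th9 and Th2 cells turned to -0.25 and 0.0501. The slide block left 317 genes and 0 of 8 members called between Th9 and Th2 cells, and 6682 genes called between Th9 and Treg cells; the cause was not tested. It left 0 of 24 and 8 of 24 member probes called in those comparisons. Leaving out arrays gave 1819 (without Th9 2) to 3670 genes called between Th9 and Th2 cells, where fewer arrays enter the fit, and 1 to 2 members.

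Between Th9 and Th2 cells 2 members in place of 1 were called with normexp, with the mean of probes, with the replicate block and without the arrays numbered 3, and each time the added gene was Nfat5. The replicate block moved no other call of a member in the 4 comparisons. For Th9 stim against Th9, Th9 against Treg and Th2 against Treg cells this block gave 11596, 11529 and 11299 genes called. Dim probes limit what the arrays show: 1 Nfatc3 probe was never above background, and 1 Nfat5 probe was below it in Th9 cells.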
